A study of Mus musculus with 12 samples.

Results

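The 47 genes described here are known targets of the transcription factor ATF4 and genes of the unfolded protein response, taken by gene symbol from knowledge of these pathways. They were chosen with earlier results of these data known. All 47 symbols were found once in the deposited matrix of 28948 genes. Of them, 45 reached 1 RPKM (reads divided by exon length in kilobases and by library size) in at least 3 of 12 libraries and were tested, as were 11245 genes in all. The 2 genes not tested were Stc2, with 3 to 20 reads per library, and Cbs, with 0 to 5 reads. The members are ordered by role into 12 stress factors and secreted stress hormones, 5 serine and one-carbon enzymes, 5 other amino acid enzymes, 3 amino acid transporters, 6 cytosolic tRNA synthetases, 11 endoplasmic reticulum (ER) chaperones and folding enzymes, and 5 genes of ER sensing, XBP1 and ER-associated degradation.

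When amino acids run short, when unfolded proteins load the ER, or under other stresses, kinases phosphorylate the translation factor eIF2alpha. General protein synthesis then slows while the mRNA of Atf4 is translated better, and ATF4 protein switches on genes for amino acid synthesis, amino acid uptake and tRNA charging together with stress factors such as CHOP, the product of Ddit3. The unfolded protein response adds the sensors IRE1 (Ern1), which splices the Xbp1 mRNA, and ATF6, and the factors they release switch on ER chaperones and degradation genes. Fat cells secrete large amounts of protein, adiponectin among them, and are known to use this pathway during differentiation. ATF4 activity is set largely at translation, and XBP1 activity by the splicing that IRE1 performs. The RNA levels given here therefore do not measure either directly.

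The study sequenced RNA from 3T3-L1 adipocytes, a mouse fibroblast-like line turned into fat cells, in 4 groups of 3 libraries. The groups were cells overexpressing Foxp1, cells with an empty vector, cells in which Foxp1 was lowered by a short hairpin RNA (knockdown) and cells with a scrambled hairpin. All of them were differentiated with insulin (5 µg/ml), troglitazone (10 µM), dexamethasone (1 µM) and isobutyl methylxanthine (0.5 mM), were kept in insulin alone from day 4, and from day 6 grew in plain medium. When they were harvested, the sequence of the construct and the hairpin, and whether the libraries of a group came from separate cultures were not stated, so p-values measure the spread between these libraries, which may be technical.

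Foxp1 itself had 5.78, 7.16 and 6.75 RPKM in the overexpression libraries, against 1.83, 1.76 and 1.82 RPKM with the empty vector. It had 1.11, 1.14 and 1.07 RPKM in the knockdown libraries, against 2.24, 2.20 and 2.11 RPKM with the scrambled hairpin. Depth was 35252020 to 38450003 gene-assigned reads per library, and 1 read in a gene of 1 kilobase of exon was worth 0.0260 to 0.0284 RPKM. Of 8 adipocyte markers, all were detected in every group, and none of the 4 endothelial markers and 1 of 5 macrophage markers (Cd68) reached the level for testing. The adipocyte markers moved with both comparisons: all 8 fell with overexpression, to a summed level of 2849 to 3133 RPKM against 7778 to 7916 RPKM with the empty vector, and with knockdown 6 rose and 2 fell, with a sum of 8262 to 8921 RPKM against 5706 to 5854 RPKM with the scrambled hairpin. Of 6 preadipocyte and fibroblast markers, 5 were tested and Cd34 was not. Thy1, Pdgfrb and Dlk1 rose and Ly6a and Pdgfra fell with overexpression, with a sum of 114 to 119 RPKM against 104 to 116 RPKM with the empty vector. Pdgfrb rose and Ly6a and Thy1 fell with knockdown, with a sum of 117 to 132 RPKM against 134 to 153 RPKM with the scrambled hairpin. Of 5 skeletal muscle markers only Des was tested, and it fell in both comparisons; Cd68 fell with knockdown. In bulk RNA, fewer differentiated cells and less RNA per cell cannot be told apart, and the part of these shifts in the results on the stress genes was not tested. Overexpression replicate 3 stood apart, with 13.1% of its reads from the mitochondrial genome beside 9.99% and 9.65% in replicates 1 and 2 (group means 10.9% ± 1.91 with overexpression, 9.04% ± 0.387 with the empty vector, 6.34% ± 0.433 with knockdown and 5.37% ± 0.497 with the scrambled hairpin). Of the 45 tested members, 36 were lower in that library than the mean of the other overexpression libraries, as were 7527 of 11245 genes.

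The DNA letters that ATF4 and the unfolded protein response factors are known to bind were looked for in the promoters, since these are the features that could be shared within the list. RefSeq windows of 300 bases (250 before the transcription start and 50 after it, build GRCm38.p6) were at hand for 39 of 47 members. Those without one were Atf6, Cth, Hyou1, Eif4ebp1, Slc7a5, Manf, Nars and Cars. The C/EBP-ATF response element, bound by ATF4 paired with a C/EBP protein and searched as TGATGNAA on both strands, was present in 9 of 39 members (23.1%), against 4.51% of 27025 genes with a window. These 9 were Nupr1, Trib3, Chac1, Fgf21, Asns, Pycr1, Aars, Gars and Herpud1. The ER stress response element ERSE, on which ATF6 and XBP1 act together with NF-Y, was searched on both strands as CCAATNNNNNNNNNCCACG, the blocks CCAAT and CCACG with any 9 letters between them. It was present in 6 members (15.4%), against 0.137% of genes: Hspa5, Hsp90b1, Dnajc3, Pdia6, Calr and Creld2. The shorter ERSE-II, ATTGG and CCACG with 1 letter between them, was found in Herpud1 and in 0.0444% of genes. No member held the XBP1 element UPRE as TGACGTGG (0.714% of genes) or the forkhead core TGTTTAC (4.05% of genes), both searched on both strands. Herpud1 alone held matches to 2 of these motifs, and they do not overlap. A match is a match of letters, and none was tested for binding. The members were picked as known genes of these pathways, so shares above those of all genes do not test the list.

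The 250 bases before the start of 6 members are shown because these genes carry the contrasts described below: Chac1 was lower in both comparisons, Fgf21 was higher with overexpression, Aars moved in opposite directions, Herpud1 was lower with knockdown, Hspa5 is the main ER chaperone and Pdia6 was lower with overexpression. Letters are given 5′ to 3′ on the strand of the gene, and capitals mark a match to a motif named above. In Chac1, Fgf21 and Aars the capitals are a C/EBP-ATF response element read on the opposite strand, in Herpud1 such an element and, nearer the start, the ERSE-II, and in Hspa5 and Pdia6 an ERSE.
Chac1: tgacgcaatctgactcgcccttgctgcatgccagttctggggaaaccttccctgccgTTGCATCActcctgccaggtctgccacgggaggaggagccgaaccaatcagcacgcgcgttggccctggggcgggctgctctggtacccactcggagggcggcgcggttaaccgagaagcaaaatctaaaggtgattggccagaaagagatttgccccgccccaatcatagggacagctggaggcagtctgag
Fgf21: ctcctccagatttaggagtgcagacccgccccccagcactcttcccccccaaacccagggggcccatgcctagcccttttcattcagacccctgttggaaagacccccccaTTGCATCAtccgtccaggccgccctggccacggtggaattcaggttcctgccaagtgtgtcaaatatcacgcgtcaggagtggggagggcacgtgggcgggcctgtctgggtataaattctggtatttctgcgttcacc
Aars: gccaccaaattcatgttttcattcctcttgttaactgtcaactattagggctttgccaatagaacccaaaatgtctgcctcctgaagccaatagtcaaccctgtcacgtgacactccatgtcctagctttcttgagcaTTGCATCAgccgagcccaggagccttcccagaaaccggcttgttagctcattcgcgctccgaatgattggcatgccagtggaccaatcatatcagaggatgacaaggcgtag
Herpud1: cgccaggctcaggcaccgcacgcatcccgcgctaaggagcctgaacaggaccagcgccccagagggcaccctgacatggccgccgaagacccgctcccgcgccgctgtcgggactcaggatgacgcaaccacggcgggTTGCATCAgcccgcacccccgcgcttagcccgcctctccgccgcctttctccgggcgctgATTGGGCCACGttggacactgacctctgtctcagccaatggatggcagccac
Hspa5: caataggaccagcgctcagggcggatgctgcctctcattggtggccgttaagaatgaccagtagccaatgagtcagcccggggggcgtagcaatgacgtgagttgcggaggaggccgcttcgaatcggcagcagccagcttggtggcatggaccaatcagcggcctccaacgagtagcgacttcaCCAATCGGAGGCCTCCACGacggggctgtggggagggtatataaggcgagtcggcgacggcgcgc
Pdia6: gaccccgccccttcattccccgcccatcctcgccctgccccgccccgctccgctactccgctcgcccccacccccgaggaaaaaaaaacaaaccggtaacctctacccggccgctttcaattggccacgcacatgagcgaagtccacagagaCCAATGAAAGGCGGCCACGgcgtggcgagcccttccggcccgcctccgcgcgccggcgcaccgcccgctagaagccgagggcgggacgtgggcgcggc

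The positions of these stretches are chr2:119350992-119351241 (plus strand) for Chac1, chr7:45615491-45615740 (minus strand) for Fgf21, chr8:111033592-111033841 (plus strand) for Aars, chr8:94386179-94386428 (plus strand) for Herpud1, chr2:34771840-34772089 (plus strand) for Hspa5 and chr12:17266339-17266588 (plus strand) for Pdia6, all in RefSeq build GRCm38.p6. Each C/EBP-ATF match shown reads TTGCATCA on the strand of the gene, so that Chac1, Fgf21, Aars and Herpud1 share the same 8 letters. Aars held a second match, 9 to 16 bases after the start and not shown. Calls here are limma adjusted p under 0.05, which 51.4% of all genes tested reached with overexpression (31% up and 20.3% down) and 49.7% with knockdown (18.7% up and 31% down). Of the 9 members with a C/EBP-ATF element, 1 rose and 6 fell with overexpression, and 2 rose and 4 fell with knockdown. Of the 30 without it, 28 were tested, of which 6 rose and 11 fell with overexpression and 7 rose and 6 fell with knockdown. Among the 6 with an ERSE, 2 rose and 1 fell with overexpression and 2 rose and 2 fell with knockdown. Members that carry the same letters therefore moved in both directions.

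Foxp1 overexpression was compared with the empty vector to ask how the pathway stood in cells with more Foxp1. Stress factors were lower, all 3 amino acid transporters on the list were higher, and the other role lists held changes in both directions or few changes. Atf4 mRNA itself was not called. In all, 9 of 45 tested members rose and 19 fell (limma on log2(RPKM + 1), Benjamini-Hochberg adjusted p under 0.05), which is 62.2% called. Over all genes tested, 51.4% were called, 31% up and 20.3% down. The overexpression libraries did not overlap the empty-vector libraries for 28 of the 45, 8 above and 20 below, against 57.5% of all genes (34.4% above and 23.1% below). The median log2 fold change was -0.03 over the members and 0.04 over all genes. The count of all genes called up and down depended on the scaling: it was 3490 up and 2285 down as deposited, and 2419 up and 2565 down when each library was brought to the same total of RPKM, under which 7 members rose and 20 fell. With the reads of the mitochondrial genome left out of the totals, 10 members rose and 17 fell, and 11 rose and 17 fell when overexpression replicate 3 was left out.

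**Figure D1:**
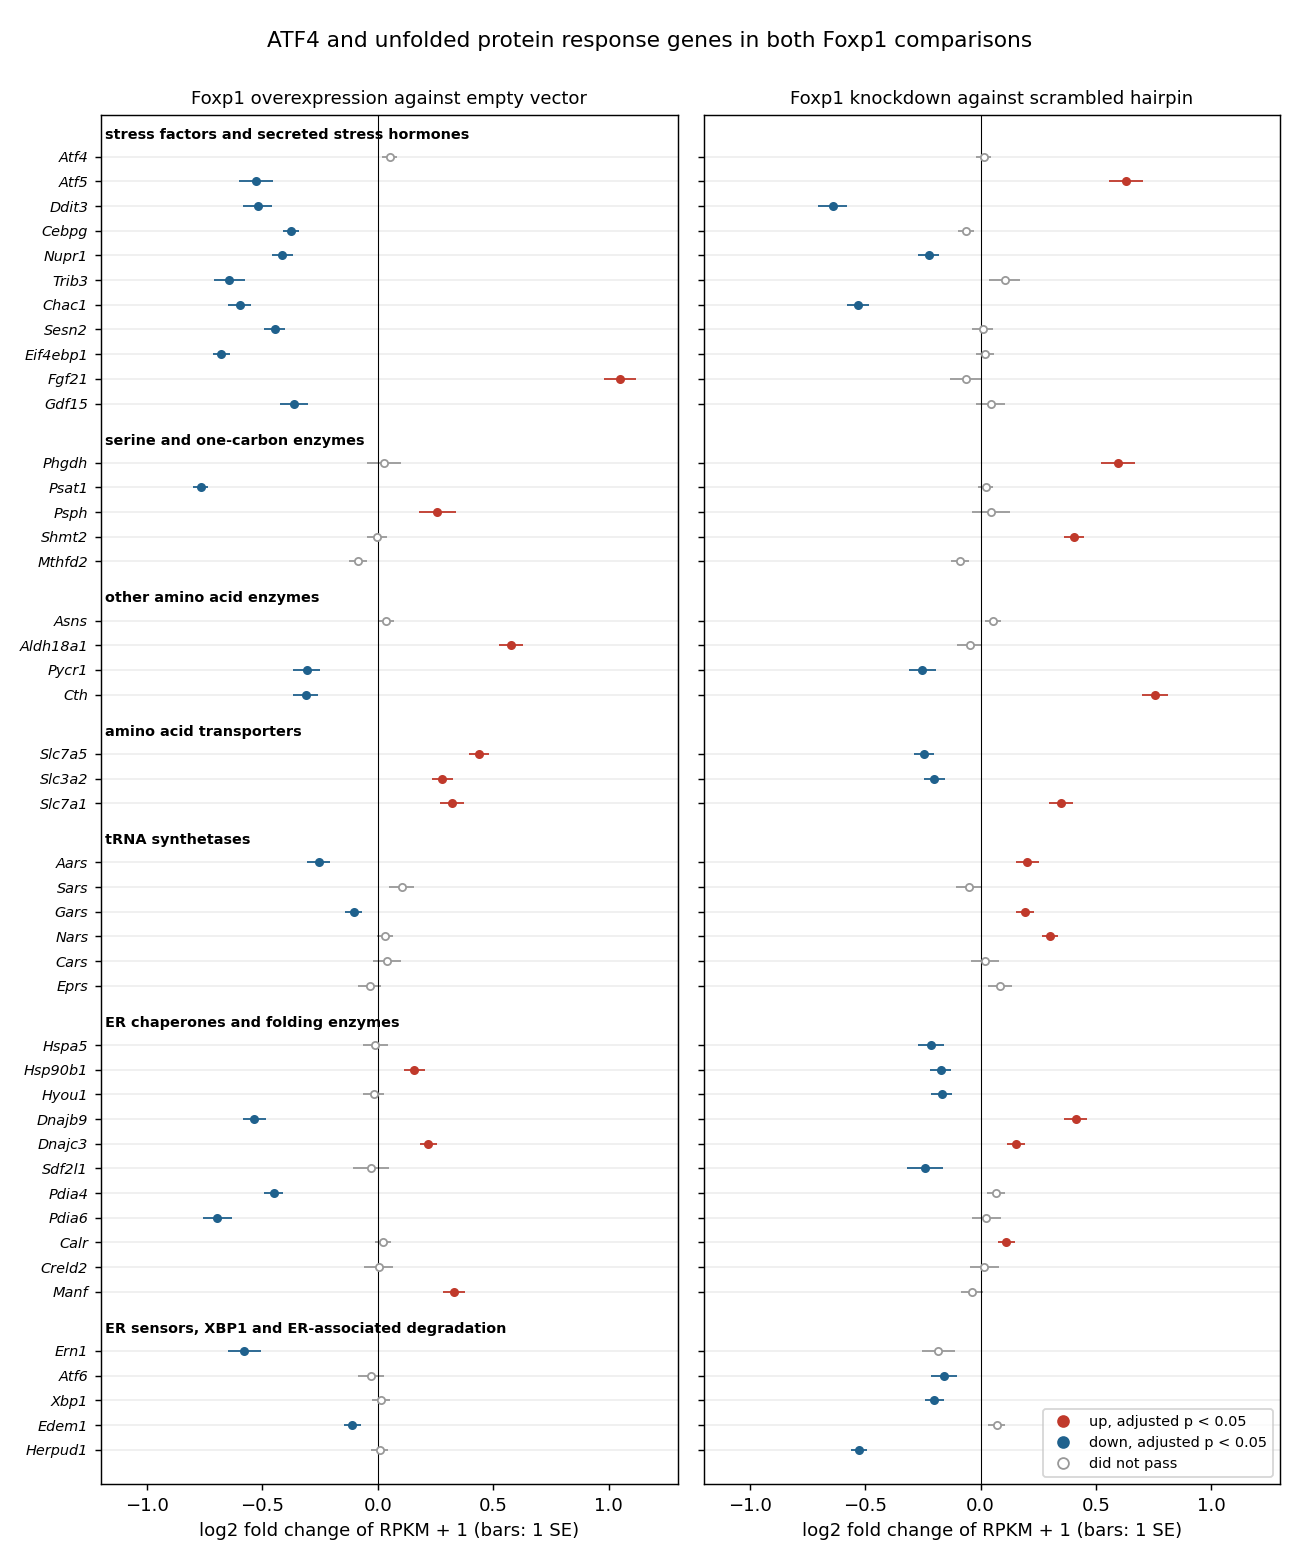
Log2 fold changes of RPKM + 1 for the 45 tested members, by role, with overexpression against empty vector on the left and knockdown against scrambled hairpin on the right; bars are 1 SE, filled points passed an adjusted p of 0.05 (red up, blue down) and open points did not. In the left panel 9 of the 11 stress factors lie below 0, Fgf21 lies farthest to the right at 1.05 and the 3 transporters lie above 0; in the right panel the stress factors spread from -0.64 (Ddit3) to 0.63 (Atf5).

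Among the stress factors, 9 of 11 fell with overexpression, 1 rose and 1, Atf4, was not called, with a median of -0.45. Atf4 (chr15:80255184-80257541 on build mm10, plus strand, by GENCODE M21), the master factor of the response, had 152, 151 and 146 RPKM in the overexpression libraries, against 145, 147 and 142 RPKM with the empty vector. Those ranges overlap, and the log2 fold change was 0.05 ± 0.033 (SE; limma adjusted p = 0.215).

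Eif4ebp1 encodes a repressor of cap-dependent translation and is an ATF4 target. It had 119.7, 125 and 121 RPKM with overexpression, against 194, 193 and 199 RPKM with the empty vector. Every overexpression library was far below every empty-vector library, with a log2 fold change of -0.68 ± 0.038 (limma adjusted p = 1.73e-08). Chac1, which degrades glutathione and whose promoter is shown above, had 33.6, 31.4 and 31.6 RPKM with overexpression and 48.9, 50.5 and 48.4 RPKM with the empty vector. The groups were apart, with a log2 fold change of -0.60 ± 0.049 (limma adjusted p = 6.2e-07). Ddit3 (mm10 chr10:127290774-127296288, plus strand), which encodes the pro-death factor CHOP, had 77.8, 73.9 and 67.7 RPKM with overexpression and 99.5, 114 and 102 RPKM with the empty vector, without overlap. Its log2 fold change was -0.52 ± 0.062 (limma adjusted p = 2.04e-05). Ddit3 shares 3.97% of its exon bases with Mars on the opposite strand, and whether the counting used strand is not stated.

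Atf5, a relative of ATF4 that is itself regulated at translation, had 182, 189 and 232 RPKM with overexpression and 282, 281 and 302 RPKM with the empty vector. Replicate 3 was the highest of the overexpression libraries, yet below every empty-vector library, and the log2 fold change was -0.53 ± 0.074 (limma adjusted p = 7.71e-05). Trib3, a pseudokinase that feeds back on ATF4, averaged 96.3 ± 7.88 RPKM with overexpression and 151 ± 11.6 RPKM with the empty vector (SD, n = 3 each). The mTORC1 inhibitor Sesn2 averaged 13.2 ± 0.286 RPKM with overexpression and 18.4 ± 0.425 RPKM with the empty vector, and Nupr1, a small stress-induced nuclear protein, 59.3 ± 2.78 and 79.3 ± 3.97 RPKM in the same order of groups. Cebpg, a C/EBP protein that pairs with ATF4, averaged 25.2 ± 0.615 RPKM with overexpression and 33.0 ± 0.766 RPKM with the empty vector. Each of these 4 had all overexpression libraries below all empty-vector libraries, and the limma adjusted p lay between 2.16e-06 for Cebpg and 8.95e-06 for Nupr1.

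The 2 stress hormones on the list that were tested went opposite ways. Fgf21, a hormone that acts on fat and brain and whose promoter is shown above, had 1.48, 1.43 and 1.69 RPKM with overexpression, from 52, 50 and 59 reads, against 0.249, 0.273 and 0.149 RPKM with the empty vector, from 9, 10 and 5 reads. All overexpression libraries were higher, and the ratio of means was 6.84. On the log2(RPKM + 1) scale, which compresses so low a gene, the fold change was 1.05 ± 0.070 (limma adjusted p = 9.23e-08). Fgf21 passed the filter on low values through the other 3 groups, not through the empty vector. Gdf15, which curbs appetite through a receptor in the hindbrain, had 1.11, 1.23 and 1.26 RPKM with overexpression and 1.89, 2.05 and 1.58 RPKM with the empty vector. The overexpression libraries were all lower, with a log2 fold change of -0.36 ± 0.061 (limma adjusted p = 0.000323).

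**Figure D2:**
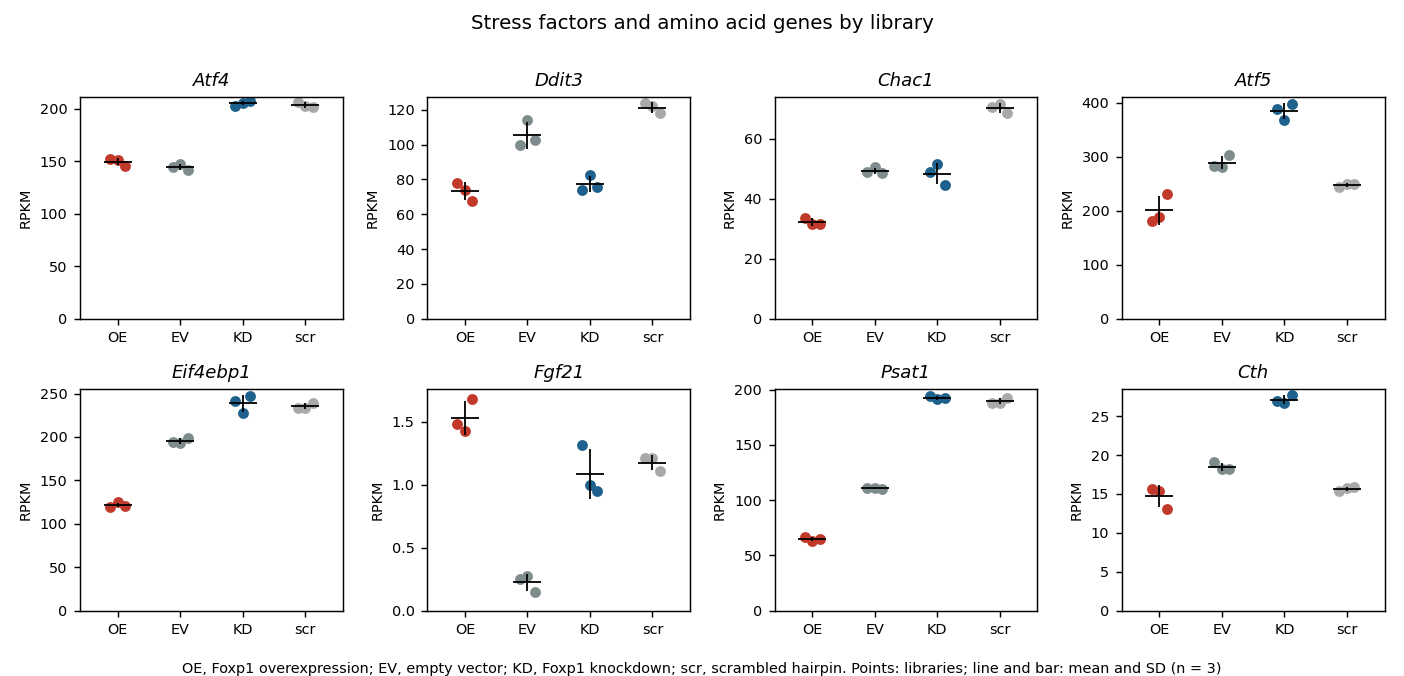
RPKM (linear axis from 0) in each library for 6 stress factors and 2 amino acid enzymes; points are libraries, the line and bar are mean and SD of 3 libraries, in the order overexpression (OE), empty vector (EV), knockdown (KD) and scrambled hairpin (scr). Ddit3 and Chac1 are lower in OE than EV and in KD than scr, Atf5 and Cth are lower in OE and higher in KD, Eif4ebp1 and Psat1 are lower in OE than EV and overlap between KD and scr, and Atf4 overlaps within both pairs.

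Serine is made from a glycolytic intermediate by Phgdh, Psat1 and Psph in turn, and Shmt2 and Mthfd2 pass its carbon to folate in mitochondria. Of these 5 enzymes, 1 fell and 1 rose with overexpression. Psat1, the transaminase, had 66.4, 62.7 and 65.0 RPKM with overexpression, against 111, 111 and 110.3 RPKM with the empty vector. Its libraries fell into tight, separate groups, with a log2 fold change of -0.77 ± 0.032 (limma adjusted p = 1.43e-09). Phgdh, the entry enzyme, had 51.4, 48.1 and 40.1 RPKM with overexpression and 45.5, 45.4 and 45.3 RPKM with the empty vector. The overexpression libraries lay on both sides of the empty-vector ones (limma adjusted p = 0.78), and without overexpression replicate 3 Phgdh was called up (log2 fold change 0.13, adjusted p = 0.0337). Psph, the phosphatase that completes the path, had 11.5, 10.3 and 8.37 RPKM with overexpression and 8.54, 8.44 and 7.62 RPKM with the empty vector. Those ranges overlap, although the test passed (log2 fold change 0.26 ± 0.081, limma adjusted p = 0.0183). That call was lost without overexpression replicate 1 (adjusted p = 0.0739), without overexpression replicate 2 (adjusted p = 0.0584), without empty-vector replicate 3 (adjusted p = 0.077), and under 3 other settings. Psph also shares 10.44% of its exon bases with the more highly expressed Cct6a on the opposite strand. Shmt2 averaged 29.1 ± 1.01 RPKM with overexpression and 29.1 ± 0.816 RPKM with the empty vector, and Mthfd2 74.2 ± 3.71 and 78.7 ± 1.33 RPKM in that order (limma adjusted p = 0.958 for Shmt2 and 0.0883 for Mthfd2). Mthfd2 was called down without overexpression replicate 1 (adjusted p = 0.0472), with equal totals of RPKM (adjusted p = 0.0459) and with median-ratio scaling (adjusted p = 0.0111).

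Of the 4 other amino acid enzymes tested, 1 rose and 2 fell. Aldh18a1 and Pycr1, which start and finish proline synthesis, went opposite ways. Aldh18a1 had 24.0, 25.3 and 21.9 RPKM with overexpression, against 16.1, 15.7 and 14.9 RPKM with the empty vector. Every overexpression library was higher, with a log2 fold change of 0.58 ± 0.052 (limma adjusted p = 1.61e-06). Pycr1 had 5.48, 4.62 and 5.73 RPKM with overexpression and 6.97, 6.40 and 6.88 RPKM with the empty vector, all lower with overexpression (log2 fold change -0.31 ± 0.058, limma adjusted p = 0.000772). Cth, which releases cysteine from cystathionine, had 15.7, 15.4 and 13.1 RPKM with overexpression and 19.1, 18.2 and 18.2 RPKM with the empty vector. It too was lower in every overexpression library, with a log2 fold change of -0.31 ± 0.055 (limma adjusted p = 0.000483). Asns, the asparagine synthetase that is a standard readout of ATF4, averaged 101 ± 3.02 RPKM with overexpression and 98.5 ± 2.52 RPKM with the empty vector (limma adjusted p = 0.429).

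The 3 amino acid transporters rose with overexpression. Slc7a5 is the large neutral amino acid carrier of the plasma membrane and Slc3a2 the heavy chain it pairs with. Slc7a5 had 116, 119 and 127 RPKM with overexpression and 86.5, 91.2 and 88.4 RPKM with the empty vector. Slc3a2 had 89.5, 87.0 and 79.0 RPKM with overexpression and 69.8, 71.6 and 68.2 RPKM with the empty vector. Both partners were higher in every overexpression library, by 0.44 ± 0.043 on the log2 scale for Slc7a5 (limma adjusted p = 3.37e-06) and 0.28 ± 0.046 for Slc3a2 (limma adjusted p = 0.00029). Slc7a1, the carrier of cationic amino acids, had 6.00, 6.63 and 6.08 RPKM with overexpression and 4.88, 4.96 and 4.53 RPKM with the empty vector, again without overlap (log2 fold change 0.32 ± 0.052, limma adjusted p = 0.000228). Further carriers linked to ATF4, outside this list, did not all rise with overexpression. Slc1a4 and Slc7a11 were called up, Slc1a5 and Slc6a9 were called down, and Slc38a2 was not called.

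Transfer RNA synthetases charge tRNAs with amino acids, and those on the list are ATF4 targets. Of 6, 2 fell and none rose with overexpression. Aars, for alanine, had 37.7, 40.3 and 35.5 RPKM with overexpression and 44.1, 47 and 44.9 RPKM with the empty vector. Its groups did not overlap, and the log2 fold change was -0.26 ± 0.050 (limma adjusted p = 0.000988). Gars, for glycine, had 114, 115 and 107 RPKM with overexpression and 121, 122 and 117 RPKM with the empty vector. That small difference of -0.10 ± 0.038 passed (limma adjusted p = 0.0342), but not without overexpression replicate 3 (adjusted p = 0.0807), empty-vector replicate 1 (adjusted p = 0.0924) or empty-vector replicate 2 (adjusted p = 0.113). The call was also lost with only the libraries compared (limma adjusted p = 0.0909) and with totals without the mitochondrial genome (adjusted p = 0.0575). Sars, for serine, was not called (log2 fold change 0.10, limma adjusted p = 0.135), and was called up without overexpression replicate 3 (log2 fold change 0.18, adjusted p = 0.00187). Nars, Cars and Eprs had log2 fold changes of 0.03, 0.04 and -0.04, none of which passed.

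The 11 ER chaperones and folding enzymes split, with 3 up, 3 down and 5 not called. The 3 that fell were the disulfide isomerases Pdia4 and Pdia6 and the BiP cochaperone Dnajb9. Pdia6, whose promoter is shown above, had 38.5, 34.7 and 30.6 RPKM with overexpression and 55.5, 56.8 and 56.8 RPKM with the empty vector. The overexpression libraries were all lower and more spread, with replicate 3 the lowest (log2 fold change -0.69 ± 0.063, limma adjusted p = 1.66e-06). Pdia4 had 101, 103 and 92.9 RPKM with overexpression and 134, 134 and 138 RPKM with the empty vector, a log2 fold change of -0.45 ± 0.040 (limma adjusted p = 1.39e-06). Dnajb9 had 20.7, 19.3 and 21.4 RPKM with overexpression and 30.3, 29.7 and 30.3 RPKM with the empty vector, a log2 fold change of -0.53 ± 0.049 (limma adjusted p = 1.64e-06). Neither gene's groups overlapped.

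Hspa5 encodes BiP, the main ER chaperone and the usual marker of the unfolded protein response. It had 222, 207 and 190.3 RPKM with overexpression and 206, 219.5 and 198 RPKM with the empty vector, which overlap (log2 fold change -0.01 ± 0.055, limma adjusted p = 0.892). The secreted ER protein Manf averaged 16.4 ± 0.961 RPKM with overexpression and 12.8 ± 0.0157 RPKM with the empty vector, and the BiP cochaperone and PERK inhibitor Dnajc3 averaged 18.8 ± 0.912 RPKM with overexpression and 16 ± 0.236 RPKM with the empty vector (SD, n = 3 each). Both rose without overlap (limma adjusted p = 0.000108 and 0.000398). Hsp90b1, the ER member of the HSP90 family, averaged 109 ± 6.01 RPKM with overexpression and 97.9 ± 2.79 RPKM with the empty vector. Its call (limma adjusted p = 0.0127) was lost without overexpression replicate 1 (adjusted p = 0.0506), without empty-vector replicate 3 (adjusted p = 0.0545) and with equal totals of RPKM (adjusted p = 0.179). Hyou1, Sdf2l1, Calr and Creld2 were within -0.03 to 0.02 of the empty vector on the log2 scale and were not called.

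Of the 5 genes of ER sensing, XBP1 and degradation, Ern1 and Edem1 fell with overexpression. Ern1 encodes the sensor IRE1. It had 1.86, 2.01 and 1.90 RPKM with overexpression and 3.10, 3.66 and 3.35 RPKM with the empty vector, without overlap (log2 fold change -0.58 ± 0.072, limma adjusted p = 2.62e-05). Edem1, which sends misfolded glycoproteins to degradation, averaged 19.9 ± 0.763 RPKM with overexpression and 21.6 ± 0.101 RPKM with the empty vector. Its call (limma adjusted p = 0.0254) was lost without any 1 of the empty-vector libraries (adjusted p = 0.0562 to 0.0694) and without overexpression replicate 3 (adjusted p = 0.0689). The call was also lost with only the libraries compared and with totals without the mitochondrial genome (limma adjusted p = 0.0582 in each). Xbp1, the factor that IRE1 activates by splicing, had 66.6, 65.1 and 65.8 RPKM with overexpression and 65.2, 63.8 and 66.7 RPKM with the empty vector, which overlap. Herpud1 and Atf6 also overlapped, with log2 fold changes of 0.01 and -0.03.

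Summed over a role list, the RPKM of the stress factors was 767 to 782 in the overexpression libraries and 1039 to 1085 with the empty vector. The transporters summed to 212 to 213 RPKM with overexpression and 161 to 168 RPKM with the empty vector. The ER chaperones summed to 839 to 906 RPKM with overexpression and 914 to 927 RPKM with the empty vector. The serine and one-carbon enzymes summed to 211 to 235 RPKM with overexpression and 271 to 274 RPKM with the empty vector. None of these pairs of ranges overlapped. The ER sensing list was apart only narrowly (147.36 to 152.38 and 152.4 to 153.04 RPKM). The sums of the tRNA synthetases and of the other amino acid enzymes overlapped. These sums are set mainly by the most abundant genes of each list and were not tested.

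Knockdown was compared with the scrambled hairpin to ask how the same genes stood in cells with less Foxp1. Of the 45 tested members, 11 rose, 13 fell and 21 were not called. The share called, 53.3%, lies near that of all genes, 49.7%, of which 18.7% were up and 31% down, so the overall count says little about these genes. Knockdown and scrambled-hairpin libraries did not overlap for 30 of the 45, 16 above and 14 below, against 59.6% of all genes (23.1% above and 36.5% below). The median log2 fold change was 0.02 over the members and -0.04 over all genes. All genes were split into 2100 up and 3487 down as deposited, and into 2626 up and 2948 down with median-ratio scaling, under which 15 members rose and 12 fell. Stress factors that fell with overexpression mostly did not rise with knockdown: Eif4ebp1, Trib3, Sesn2, Gdf15 and Cebpg were not called, Ddit3, Chac1 and Nupr1 fell, and Atf5 rose.

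Atf4 had 203, 206 and 208 RPKM in the knockdown libraries and 207, 203 and 201 RPKM with the scrambled hairpin, which overlap (log2 fold change 0.01 ± 0.033, limma adjusted p = 0.753). Of the 11 stress factors, 1 rose, 3 fell and 7 were not called. Ddit3 had 74.0, 82.5 and 75.9 RPKM with knockdown, against 124, 122 and 118 RPKM with the scrambled hairpin. All knockdown libraries were lower, with a log2 fold change of -0.64 ± 0.062 (limma adjusted p = 7.31e-06). Chac1 had 48.8, 51.5 and 44.6 RPKM with knockdown and 70.4, 71.6 and 68.4 RPKM with the scrambled hairpin, again without overlap (log2 fold change -0.53 ± 0.049, limma adjusted p = 5.08e-06). Nupr1 averaged 69.8 ± 2.23 RPKM with knockdown and 81.6 ± 0.414 RPKM with the scrambled hairpin (limma adjusted p = 0.0015). Atf5 went the other way, with 388, 369 and 397 RPKM with knockdown and 244, 250.1 and 249.4 RPKM with the scrambled hairpin. Every knockdown library was higher, by 0.63 ± 0.074 on the log2 scale (limma adjusted p = 2.8e-05). Fgf21 had 1.32, 1.00 and 0.951 RPKM with knockdown and 1.21, 1.21 and 1.11 RPKM with the scrambled hairpin, from 34 to 47 reads per library, and was not called (limma adjusted p = 0.483).

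Of the serine and one-carbon enzymes, Phgdh and Shmt2 rose and none fell. Phgdh had 35.8, 34.6 and 38.2 RPKM with knockdown and 22.7, 24.5 and 23.6 RPKM with the scrambled hairpin, all higher with knockdown (log2 fold change 0.60 ± 0.072, limma adjusted p = 3.65e-05). Shmt2 had 42.1, 38.9 and 39.7 RPKM with knockdown and 29.2, 31.0 and 30.2 RPKM with the scrambled hairpin, with no overlap either (log2 fold change 0.41 ± 0.041, limma adjusted p = 1.03e-05). Psat1, which fell most of the members with overexpression on the log2 scale, had 194, 191 and 192 RPKM with knockdown and 188, 188 and 193 RPKM with the scrambled hairpin, which overlap. Mthfd2, not called with all libraries (limma adjusted p = 0.0789), was called down when overexpression replicate 3, which shares the variance estimate, was left out (adjusted p = 0.0187).

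Cth had the largest rise of all members with knockdown. It had 27.0, 26.6 and 27.8 RPKM with knockdown, against 15.4, 15.8 and 15.8 RPKM with the scrambled hairpin. The groups stood well apart, with a log2 fold change of 0.76 ± 0.055 (limma adjusted p = 8.75e-07). Pycr1 had 14.4, 13.8 and 14.2 RPKM with knockdown and 16.8, 16.9 and 17.4 RPKM with the scrambled hairpin, all lower with knockdown (log2 fold change -0.25 ± 0.058, limma adjusted p = 0.00335). Aldh18a1 averaged 40.4 ± 0.972 RPKM with knockdown and 41.8 ± 1.86 RPKM with the scrambled hairpin and Asns 144 ± 1.82 and 139 ± 2.38 RPKM in that order, and neither was called. With median-ratio scaling Asns was called up (log2 fold change 0.0935, limma adjusted p = 0.0345).

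The transporters did not move together with knockdown. Slc7a5 had 163, 162 and 154 RPKM with knockdown and 188, 195 and 183 RPKM with the scrambled hairpin, and its partner Slc3a2 had 81.2, 81.1 and 85.3 RPKM with knockdown and 94.2, 97.5 and 93.3 RPKM with the scrambled hairpin. Both were lower in every knockdown library, with log2 fold changes of -0.24 ± 0.043 and -0.20 ± 0.046 (limma adjusted p = 0.000611 and 0.0035). Slc7a1 had 9.83, 10.7 and 9.96 RPKM with knockdown and 7.91, 8.12 and 7.30 RPKM with the scrambled hairpin, all higher with knockdown (log2 fold change 0.35 ± 0.052, limma adjusted p = 0.000158).

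Of the 6 tRNA synthetases, 3 rose and none fell with knockdown. Nars, for asparagine, had 54.1, 53.3 and 52.8 RPKM with knockdown and 42.1, 43.3 and 44.0 RPKM with the scrambled hairpin. Its groups did not overlap (log2 fold change 0.30 ± 0.033, limma adjusted p = 1.81e-05). Gars had 185, 189 and 183 RPKM with knockdown and 159, 167 and 162 RPKM with the scrambled hairpin, and Aars had 48.8, 51.3 and 51.9 RPKM with knockdown and 44.1, 45.7 and 42.1 RPKM with the scrambled hairpin. Both were higher in every knockdown library (log2 fold change 0.19 ± 0.038, limma adjusted p = 0.00115 for Gars, and 0.20 ± 0.050, adjusted p = 0.00524 for Aars). With equal totals of RPKM the adjusted p of Aars was 0.0532.

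**Figure D3:**
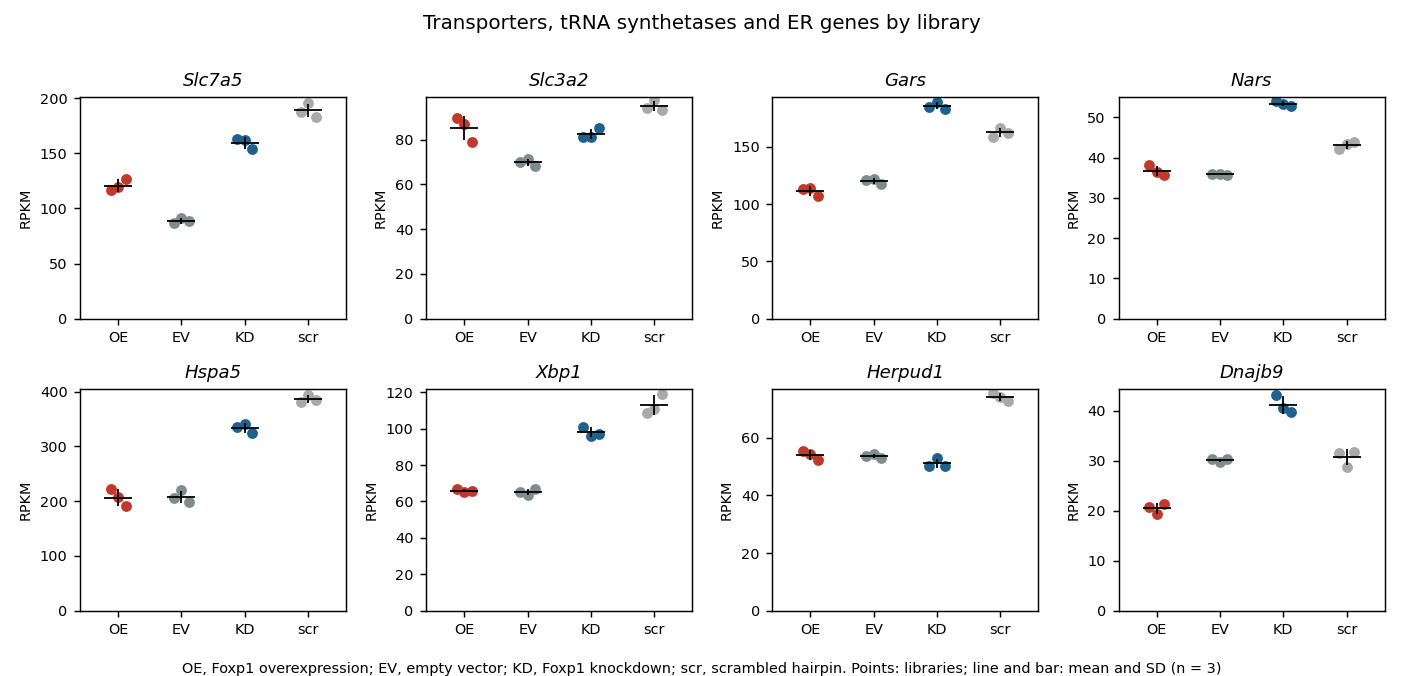
RPKM (linear axis from 0) in each library for 2 transporters, 2 tRNA synthetases and 4 ER genes; points are libraries, the line and bar are mean and SD of 3 libraries, in the order overexpression (OE), empty vector (EV), knockdown (KD) and scrambled hairpin (scr). Slc7a5 and Slc3a2 are higher in OE than EV and lower in KD than scr, Dnajb9 and Gars do the reverse, Herpud1 stands out in scr, and Hspa5 and Xbp1 are highest in scr and overlap between OE and EV.

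Among the ER chaperones, 4 fell and 3 rose with knockdown. Hspa5 had 335, 342 and 324 RPKM with knockdown, against 381, 395 and 384 RPKM with the scrambled hairpin. All knockdown libraries were lower, with a log2 fold change of -0.21 ± 0.055 (limma adjusted p = 0.00693). The large ER chaperones Hsp90b1 and Hyou1 fell by a like amount, with log2 fold changes of -0.17 ± 0.046 and -0.17 ± 0.046 (limma adjusted p = 0.00816 and 0.00928). Sdf2l1, a part of the BiP chaperone cycle, had 21.4, 17.7 and 20.7 RPKM with knockdown and 23.3, 23.3 and 24.4 RPKM with the scrambled hairpin. Its knockdown libraries were lower but spread, and the call (limma adjusted p = 0.0238) was lost without knockdown replicate 2 (adjusted p = 0.1) or scrambled-hairpin replicate 3 (adjusted p = 0.0726), and with no filter (adjusted p = 0.0768). Dnajb9 had 43.2, 40.6 and 39.8 RPKM with knockdown and 31.5, 28.8 and 31.8 RPKM with the scrambled hairpin, without overlap (log2 fold change 0.41 ± 0.049, limma adjusted p = 2.86e-05). Dnajc3 averaged 14.1 ± 0.327 RPKM with knockdown and 12.6 ± 0.163 RPKM with the scrambled hairpin (limma adjusted p = 0.00497; 0.0693 with equal totals of RPKM). The calcium-binding chaperone Calr averaged 522 ± 16.7 RPKM with knockdown and 483 ± 1.99 RPKM with the scrambled hairpin. Its call (limma adjusted p = 0.0221) was lost without scrambled-hairpin replicate 1 or 2 or knockdown replicate 1 or 3 (adjusted p = 0.0604 to 0.0873) and with equal totals of RPKM (adjusted p = 0.0966). With equal totals only 1 of the 11 chaperones was called up. Pdia4 and Pdia6, lower with overexpression, had log2 fold changes of 0.07 and 0.02 with knockdown and were not called. With median-ratio scaling Pdia4 was called up (log2 fold change 0.108, limma adjusted p = 0.0177).

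Herpud1, which anchors the ER degradation machinery and whose promoter is shown above, had the clearest fall in the ER lists. It had 50.2, 53.1 and 50.4 RPKM with knockdown, against 75.7, 74.3 and 72.8 RPKM with the scrambled hairpin. All knockdown libraries were far lower, with a log2 fold change of -0.53 ± 0.036 (limma adjusted p = 4.97e-07). Herpud1 was also called higher with the scrambled hairpin than with the empty vector. It had 4394 to 4678 reads with knockdown and 4373 to 4891 with the empty vector, against 6433 to 6737 with the scrambled hairpin. Xbp1 had 101, 96.0 and 97.1 RPKM with knockdown and 109, 111 and 119 RPKM with the scrambled hairpin, lower without overlap (log2 fold change -0.20 ± 0.040, limma adjusted p = 0.00131). Atf6, a membrane-bound sensor, had 7.67, 8.78 and 8.10 RPKM with knockdown and 9.32, 9.66 and 8.76 RPKM with the scrambled hairpin. Those ranges overlap slightly. The call of Atf6 (limma adjusted p = 0.0325) was lost without knockdown replicate 1 or 3 or scrambled-hairpin replicate 1 or 2 (adjusted p = 0.0811 to 0.131). That call was also lost with median-ratio scaling (limma adjusted p = 0.0774), totals without the mitochondrial genome (adjusted p = 0.0553) and no filter (adjusted p = 0.0806). Ern1, with 3.45, 4.52 and 3.65 RPKM with knockdown and 4.59, 4.54 and 4.40 RPKM with the scrambled hairpin, just missed the threshold (limma adjusted p = 0.0509). It passed without knockdown replicate 2, the highest of its group (adjusted p = 0.00185), without empty-vector replicate 2 (adjusted p = 0.0496), with equal totals of RPKM (adjusted p = 0.047) and with voom (adjusted p = 0.025).

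The responses to overexpression and to knockdown share no libraries and were subtracted in the same model. Of the 45 tested members, 28 differed between the responses (62.2%, against 54.9% of all genes): 9 had the higher response to overexpression and 19 the lower. Over all genes 34.6% had the higher response to overexpression and 20.3% the lower, and the counts were 3888 and 2285 as deposited, or 3142 and 2909 with median-ratio scaling, under which 7 members were higher and 21 lower. Calls in both comparisons in opposite directions were found for 8 of 45 members (17.8%), near the 18.1% of all genes, and calls in the same direction for 6 of 45 (13.3%, against 10.5%). Neither share sets the list apart.

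The 8 genes with opposite calls were Atf5, Cth, Dnajb9, Aars and Gars, lower with overexpression and higher with knockdown, and Slc7a5, Slc3a2 and Hsp90b1, the reverse. Among them the widest difference of responses (overexpression minus knockdown, log2 scale) was that of Atf5, -1.16 ± 0.11 (limma adjusted p = 1.69e-06), followed by Cth with -1.07 ± 0.078 (adjusted p = 2.57e-07) and Dnajb9 with -0.95 ± 0.069 (adjusted p = 2.43e-07). Slc7a5 had 0.68 ± 0.061 (limma adjusted p = 1.54e-06) and Slc3a2 0.48 ± 0.066 (adjusted p = 5.87e-05), so both chains of the carrier followed the same pattern. The calls of Gars and Hsp90b1 with overexpression and of Aars with knockdown rest on the libraries or scaling given above.

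The 6 genes with calls in the same direction were Ddit3, Chac1, Nupr1 and Pycr1, lower in both, and Slc7a1 and Dnajc3, higher in both. For Ddit3 the responses differed by 0.12 ± 0.088 (limma adjusted p = 0.266) and for Chac1 by -0.07 ± 0.069 (adjusted p = 0.426). For Nupr1 the fall was larger with overexpression (difference -0.19 ± 0.064, limma adjusted p = 0.0241), which no longer passed without empty-vector replicate 2 or 3, scrambled-hairpin replicate 1 or knockdown replicate 3 (adjusted p = 0.0502 to 0.0633). A gene that is lower both with more and with less Foxp1 than its own control did not follow the level of Foxp1 in one direction.

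**Figure D4:**
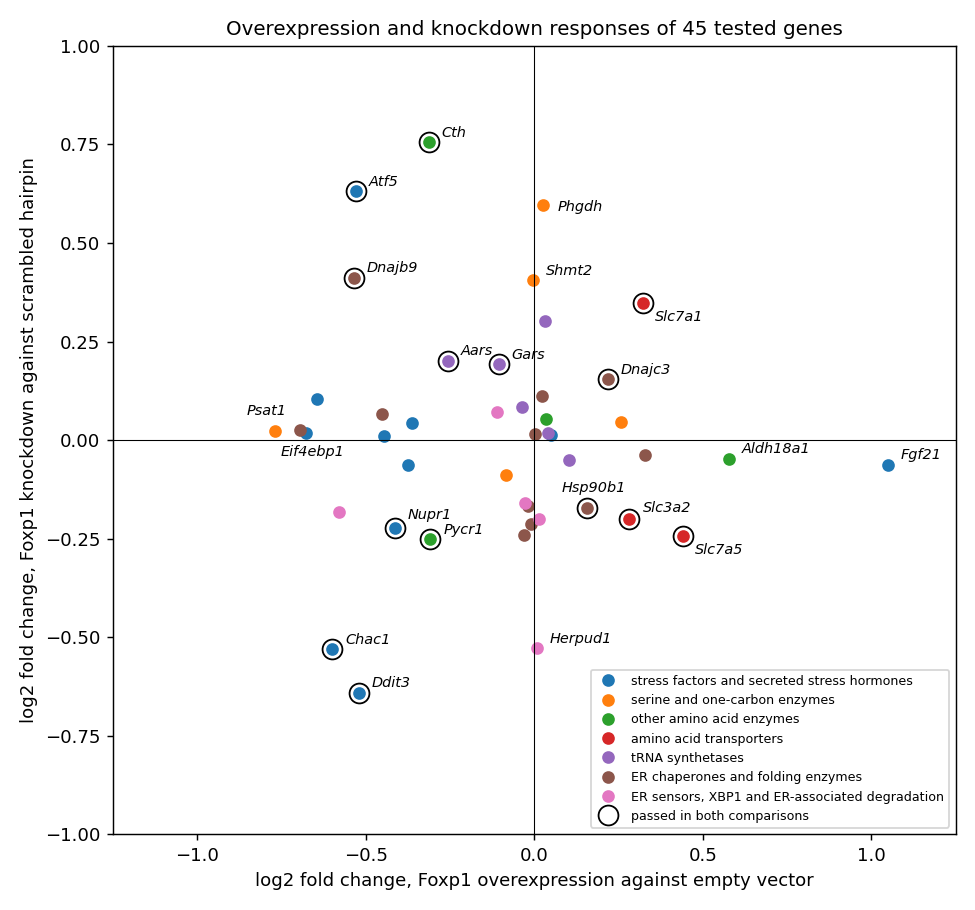
Log2 fold change (RPKM + 1) with overexpression against empty vector on the x axis and with knockdown against scrambled hairpin on the y axis, for the 45 tested members coloured by role; rings mark the 14 genes that passed in both comparisons. Of the ringed genes, 8 lie at the upper left or lower right (Cth, Atf5, Dnajb9, Aars, Gars, Slc7a5, Slc3a2, Hsp90b1) and 6 at the lower left or upper right (Ddit3, Chac1, Nupr1, Pycr1, Slc7a1, Dnajc3), while Psat1, Eif4ebp1 and Fgf21 lie near 0 on the y axis.

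Several members moved in only 1 of the comparisons, and for these the difference was tested as well. Psat1 (-0.79 ± 0.045, limma adjusted p = 2.95e-08) and Eif4ebp1 (-0.70 ± 0.053, adjusted p = 3.83e-07) responded lower to overexpression than to knockdown. Fgf21 (1.11 ± 0.099, limma adjusted p = 1.49e-06) and Herpud1 (0.53 ± 0.051, adjusted p = 2.44e-06) had the higher response to overexpression. The response to overexpression was also called lower for Trib3, Sesn2, Cebpg, Gdf15, Pdia4, Pdia6, Ern1, Edem1, Shmt2, Nars and Phgdh. It was called higher for Aldh18a1 and Manf. For Psph, Hyou1, Sdf2l1, Calr and Atf6, also called in only 1 comparison, the difference was not called as deposited. Under some other settings it passed for Psph, Hyou1, Sdf2l1 and Calr. The differences for Xbp1 (0.21, limma adjusted p = 0.00661) and Hspa5 (0.20, adjusted p = 0.0441) passed as deposited and not with median-ratio scaling (adjusted p = 0.0809 and 0.133). That of Hspa5 was also lost on leaving out any 1 of overexpression replicates 1 and 2, empty-vector replicates 1 and 3, knockdown replicates 1 and 3 and the scrambled-hairpin replicates (adjusted p = 0.0624 to 0.111). With equal totals of RPKM (limma adjusted p = 0.121) and with no filter (adjusted p = 0.103) the difference for Hspa5 did not pass either.

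The controls themselves differed widely in this pathway. Of the 45 tested members, 33 were higher and 6 lower with the scrambled hairpin than with the empty vector (86.7% called, against 71.8% of all genes, of which 44.8% were up and 27% down). The scrambled-hairpin libraries lay wholly above the empty-vector libraries for 34 members and wholly below for 6, against 78.9% of all genes (48.9% above and 30.1% below). The median log2 fold change was 0.36 over the members and 0.09 over all genes. With equal totals of RPKM the members split into 36 up and 3 down, and all genes into 5696 up and 2355 down beside 5037 and 3033 as deposited (4167 and 3784 with median-ratio scaling). Foxp1 itself was called higher with the scrambled hairpin than with the empty vector (log2 fold change 0.18). Of the 8 adipocyte markers, 5 were called lower with the scrambled hairpin (Cfd, Adipoq, Pparg, Lipe and Plin1) and 1, Fabp4, higher. The part of these shifts in the stress genes was not tested. Vector, hairpin and any difference in culture or processing between these groups cannot be told apart, and this contrast shares its libraries with both others.

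Atf4 had 207, 203 and 201 RPKM with the scrambled hairpin, against 145, 147 and 142 RPKM with the empty vector. Here, unlike in either Foxp1 comparison, its groups did not overlap (log2 fold change 0.49 ± 0.033, limma adjusted p = 4.44e-08). The ratio of mean RPKM, scrambled hairpin over empty vector, was 2.69 for Aldh18a1, 2.52 for Pycr1, 2.23 for Manf, 2.13 for Slc7a5, 2.06 for Sdf2l1, 1.86 for Hspa5 and 1.71 for Psat1. Fgf21, with few reads, had a ratio of 5.26. The 6 lower with the scrambled hairpin were Phgdh, Dnajc3, Trib3, Cth, Cebpg and Atf5. Phgdh had 22.7, 24.5 and 23.6 RPKM with the scrambled hairpin and 45.5, 45.4 and 45.3 RPKM with the empty vector, the opposite direction to Psat1, its neighbour in the path. A level in an overexpression library set beside one in a knockdown library carries these differences between the controls as well.

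**Figure D5:**
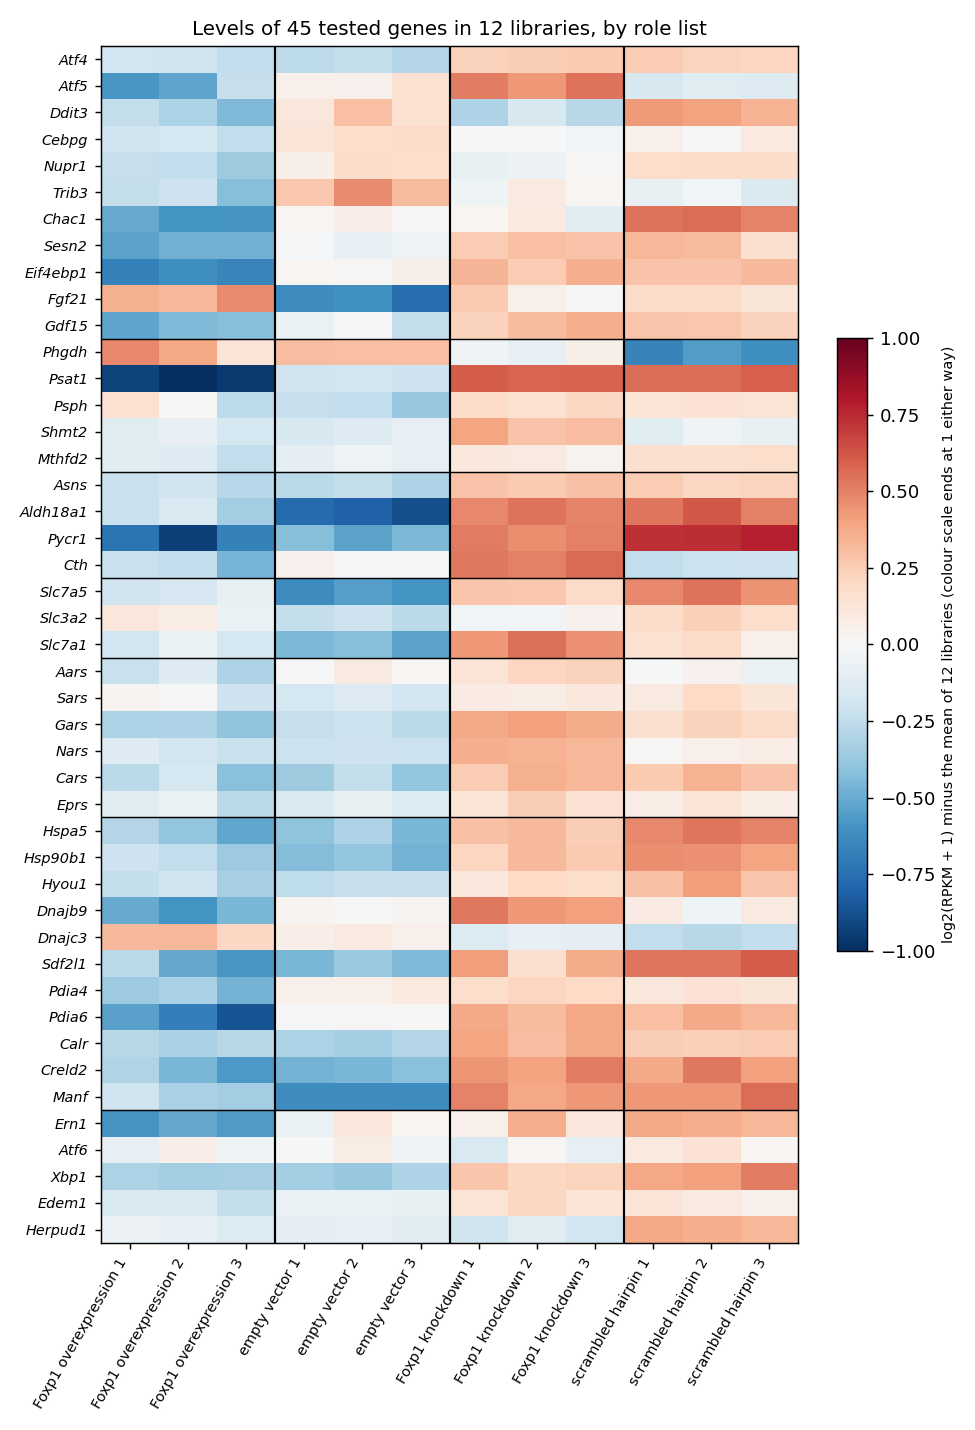
Level of the 45 tested members in each of 12 libraries as log2(RPKM + 1) minus the mean over the libraries, grouped by role (horizontal lines) and by group (vertical lines), with the colour scale ending at 1 either way. The 6 libraries with hairpins are mostly above the mean and the 6 with overexpression or empty vector mostly below it. Exceptions include Phgdh, Dnajc3, Trib3, Ddit3, Nupr1, Cebpg and Atf5. Overexpression replicate 3 is paler for Phgdh and Atf5 than replicates 1 and 2.

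Other genes of the same pathways were listed by name to place these results. Of 12 eIF2alpha kinases, phosphatase subunits and eIF2B subunits, 5 rose and none fell with overexpression, and 1 rose and 4 fell with knockdown. Eif2ak3, the ER kinase PERK upstream of ATF4, had 7.69, 8.14 and 7.36 RPKM with overexpression and 5.61, 5.63 and 5.44 RPKM with the empty vector (log2 fold change 0.41, limma adjusted p = 8.54e-06). The groups did not overlap, so the kinase was higher where most stress factors were lower. Ppp1r15a, the stress-induced subunit that leads a phosphatase back to eIF2alpha, averaged 32.4 ± 3.47 RPKM with knockdown and 42.1 ± 2.51 RPKM with the scrambled hairpin (limma adjusted p = 0.000537).

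Of 19 further tested genes linked to ATF4, 10 rose and 6 fell with overexpression and 4 rose and 10 fell with knockdown. Ddit4, an inhibitor of mTORC1, had 76.6, 74.6 and 69.0 RPKM with overexpression and 39.9, 43.0 and 43.1 RPKM with the empty vector. It had 119, 135 and 128 RPKM with knockdown and 186, 199 and 180.4 RPKM with the scrambled hairpin. It was higher in every overexpression library and lower in every knockdown library (limma adjusted p = 1.98e-07 and 1.05e-05). The neutral amino acid carrier Slc1a4 followed the same pattern, with log2 fold changes of 0.52 (limma adjusted p = 7.71e-07) and -0.27 (adjusted p = 0.000256). So did the calls of Vldlr, Adm2, Cebpb and Aldh1l2. Other genes of this list did not: Mthfd1l, Slc7a11 and Bcat1 rose in both comparisons, and Gpt2, Slc1a5 and Pck2 fell in both. Atf3 fell with overexpression and rose with knockdown.

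Of the 14 other cytosolic tRNA synthetases, 3 rose and none fell with overexpression, and 7 rose and 1, Qars, fell with knockdown. Of 17 mitochondrial tRNA synthetases, 4 rose and 6 fell with overexpression and 4 rose and 5 fell with knockdown. Of 14 further serine, glycine, folate and proline genes, 4 rose and 3 fell with overexpression and 5 rose and 3 fell with knockdown. Mat2a, which makes S-adenosylmethionine, had 71.8, 70.2 and 75.7 RPKM with overexpression and 136, 129.5 and 124 RPKM with the empty vector, and 118, 123 and 122 RPKM with knockdown and 82.8, 82.9 and 86.7 RPKM with the scrambled hairpin. It was lower with overexpression and higher with knockdown without overlap (limma adjusted p = 8.41e-09 and 2.17e-06).

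Of 29 other ER folding, translocation and degradation genes, 7 rose and 4 fell with overexpression and 3 rose and 9 fell with knockdown. Derl1, a channel component of ER-associated degradation, had 69.2, 66.6 and 67.3 RPKM with overexpression and 97.0, 100.1 and 94.3 RPKM with the empty vector, without overlap (limma adjusted p = 7.23e-08). Pdia5 averaged 6.64 ± 0.455 RPKM with overexpression and 4.84 ± 0.123 RPKM with the empty vector, the opposite direction to Pdia4 and Pdia6. Of 6 mitochondrial chaperones and proteases, 1 rose and 1 fell in each comparison. The share called on each of these lists is to be read against the shares of all genes given above.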

How the data were processed

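RNA from 12 libraries of 3T3-L1 adipocytes (4 groups of 3) was sequenced. Per the submitters' processing notes, the build was mm10, and Subread 1.5.3, featureCounts and HISAT2 2.1.0 were used; strand setting, treatment of multiply mapped reads and further filters are not given in the sources used here. The authors deposited 1 matrix of RPKM values divided by 1000, which were multiplied by 1000 here. RPKM is scaled to the library, so a few very abundant genes or a larger mitochondrial share lower all other values.

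Symbols and exon lengths came from GENCODE M21 (GRCm38) for 28896 of 28948 genes. RPKM times exon length came out whole, to within 0.05 read, in 98.83% to 98.93% of values, and the reads so recovered gave the depth, 35252020 to 38450003 per library, and the voom alternative. Read counts carry counting error, which the spread between libraries includes. Genes that reached 1 RPKM in 3 or more libraries were tested on log2(RPKM + 1) with limma 3.58.1 (R 4.3.3; lmFit, eBayes with trend) in 1 model of 4 groups with 8 residual degrees of freedom, Benjamini-Hochberg adjusted over 11245 genes, threshold 0.05. Fold changes on this scale understate changes of low genes. The procedure was tested on simulated data. The lowest correlation between libraries of a group was 0.9972, and no pair was treated as duplicate.

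The members, role lists and further lists were chosen with earlier results of these data known. Values by library are given for up to 3 called members per role list and comparison by smallest adjusted p, and for Atf4, Ddit3, Hspa5, Xbp1 and Foxp1. Edem1 with overexpression and Dnajc3 with knockdown, which this rule also picked, are given as mean and SD instead. Other genes given by library, among them Gdf15, Fgf21 with knockdown, Ern1 with knockdown, Sdf2l1 and Phgdh with overexpression, and the genes of the further lists named out of those the same rule picked, were chosen after their values were seen. Alternatives were a pseudocount of 0.1, no filter and a filter at 5 RPKM, equal totals of RPKM, median-ratio scaling, totals without the mitochondrial genome, only the libraries compared, a replicate block, voom, and leaving out each library. Python 3.11.15, pandas 2.3.3, numpy 2.4.6 and matplotlib 3.10.9 were used for tables and figures.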

Additional observations from a re-analysis of the deposited data

How the results depend on the processing

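With overexpression against the empty vector, 24 of 28 called members kept the call in every fit in which they were tested, over 9 settings and leaving out each library; the others were Edem1, Gars, Hsp90b1 and Psph. With knockdown, 19 of 24 did; the others were Aars, Atf6, Calr, Dnajc3 and Sdf2l1. For the difference of responses 25 of 28 did (others Hspa5, Nupr1 and Xbp1), and between the controls 34 of 39 (others Atf5, Cebpg, Cth, Ddit3 and Edem1). Fgf21, Gdf15 and Ern1, counted among those that kept their calls with overexpression, for the difference and between the controls, were not tested with the filter at 5 RPKM. No direction of a called member reversed. Of the counts over all members, 1 moved by over 1.5 times: with equal totals of RPKM, 3 were lower with the scrambled hairpin than with the empty vector, against 6 as deposited. Counts within role lists are small and moved more: with equal totals 1 ER chaperone rose with knockdown, against 3 as deposited, and 1 stress factor was lower with the scrambled hairpin than with the empty vector, against 3, and without overexpression replicate 3 the difference of responses was positive for 5 ER chaperones, against 3. Leaving out 1 library gave 7 to 11 up and 17 to 20 down with overexpression, and 10 to 11 up and 12 to 14 down with knockdown. The replicate numbers did not pair the libraries: the correlations of same-numbered deviations were -0.013, 0.118 and 0.081 for overexpression and empty vector, and -0.073, 0.049 and -0.059 for knockdown and scrambled hairpin. With the replicate block 9 members rose and 19 fell with overexpression, and 11 rose and 14 fell with knockdown, where Ern1 passed (limma adjusted p = 0.0214). The deposited RPKM of Stc2 and Cbs rest on too few reads for a test.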
